A study of Mus musculus with 8 samples.

Results

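The transcripts described here come from the mouse mitochondrial genome and comprise 2 ribosomal RNAs, mt-Rnr1 and mt-Rnr2, and 22 transfer RNAs, 24 genes out of 41730 in the count table. They were chosen by name alone: the 2 ribosomal RNA symbols, and every symbol made of Trn, 1 capital letter for the amino acid and, where there is a pair, a digit. The 13 protein genes of the mitochondrial genome were looked for under their NCBI symbols, none was matched, and they were not analysed here. The choice was made with the ribosomal RNA results of these libraries known, so the values of the members by treatment are a description. The study asked how naive CD8+ T cells of the mouse, isolated with a magnetic kit, respond to RGX-104, a synthetic compound that activates the liver X receptors (LXR), nuclear receptors for oxysterols. Cells of 4 libraries, numbered 1 to 4, received the vehicle DMSO, and cells of 4 libraries, numbered 5 to 8, received 2 µM RGX-104, in each case for 24 h. No stimulus, genotype, strain or age is named in the labels. The labels do not say whether the libraries of one group are separate animals or cultures, so a p-value here reflects library-to-library spread that may be technical.

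Mitochondrial DNA is transcribed from both strands into long precursors. Most of its protein genes are flanked by tRNA genes, and the precursors are released as single RNAs by cutting at both ends of these tRNAs. The heavy-strand precursor carries mt-Rnr1, the RNA of the small mitochondrial ribosomal subunit, then mt-Rnr2, the RNA of the large subunit, with TrnV between them and TrnL1 after them. All 22 tRNAs serve only the mitochondrial ribosome, which makes subunits of the respiratory chain and of the ATP synthase. Naive T cells are small quiescent cells with little mitochondrial mass, and their mitochondrial content grows when they are activated.

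The libraries were made with a QuantSeq 3′ kit, which primes on poly(A), so the A-rich stretches of the members are shown first. Mitochondrial mRNAs and ribosomal RNAs receive short A tails, whereas a mature tRNA ends in CCA. Sequences are from GENCODE M21 transcripts (build GRCm38), 5′ to 3′, with the first of the longest runs of A in capitals, and mt-Rnr1 (MT 70 to 1024, plus strand, 955 bases) and mt-Rnr2 (MT 1094 to 2675, plus strand, 1582 bases) are each given by the window around that run and by their last 60 bases, where a tail would be added.
mt-Rnr1, bases 601 to 675: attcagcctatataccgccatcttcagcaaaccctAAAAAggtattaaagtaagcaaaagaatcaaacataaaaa
mt-Rnr1, bases 896 to 955: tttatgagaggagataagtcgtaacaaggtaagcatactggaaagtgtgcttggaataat
mt-Rnr2, bases 360 to 436: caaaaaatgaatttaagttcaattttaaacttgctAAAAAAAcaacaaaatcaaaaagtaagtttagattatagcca
mt-Rnr2, bases 1523 to 1582: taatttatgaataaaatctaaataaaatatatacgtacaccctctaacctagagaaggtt
The longest run was 5 A in mt-Rnr1, found 2 times, and 7 A in mt-Rnr2, and A made up 37.8% and 38.2% of their bases. Neither ribosomal RNA ended in a run of A in the reference.

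The 5 tRNAs with the highest levels are shown next, because the tRNA results turn on them. All are on the plus strand: TrnI (isoleucine) at MT 3706 to 3774, TrnM (methionine) at MT 3845 to 3913, TrnT (threonine) at MT 15289 to 15355, TrnW (tryptophan) at MT 4950 to 5016, and TrnL1 (leucine) at MT 2676 to 2750.
TrnI: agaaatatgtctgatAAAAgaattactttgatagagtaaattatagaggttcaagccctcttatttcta
TrnM: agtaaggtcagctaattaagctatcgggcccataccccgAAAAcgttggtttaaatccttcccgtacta
TrnT: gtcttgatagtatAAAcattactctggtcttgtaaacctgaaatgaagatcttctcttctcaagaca
TrnW: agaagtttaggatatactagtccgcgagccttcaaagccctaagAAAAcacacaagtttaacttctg
TrnL1: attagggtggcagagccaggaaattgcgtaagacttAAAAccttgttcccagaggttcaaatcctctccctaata
For contrast, TrnR (arginine, MT 9808 to 9875) has the longest run of A of any of the 22, and TrnK (lysine, MT 7700 to 7764) had no count in any library.
TrnR: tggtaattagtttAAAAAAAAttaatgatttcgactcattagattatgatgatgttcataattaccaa
TrnK: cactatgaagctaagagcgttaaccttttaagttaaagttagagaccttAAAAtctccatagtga
Across the 22 tRNAs the longest run of A ranged from 2 to 8 and the A content from 22.4% to 45.7%. Neither ordered the levels: over 22 tRNAs, Spearman's rho between mean level and longest run was -0.14, and between mean level and A content it was -0.18. The tRNAs share libraries and neighbours, and rho is given as a description. Only bases within each tRNA gene were counted. Runs of A in the sequence after a gene were not examined here, so rho says nothing of priming from there.

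Library totals lay between 16196217 and 28287445 counts, and 9772 to 10990 genes had at least 1 count per library. The number of genes seen at 0 fitted far fewer independent molecules than reads, about 182352 to 344257 apparent molecules per library. On average 1 apparent molecule was then worth 2.90 to 5.48 CPM, which are counts scaled to a library total of 1000000. The fit takes reads per molecule as equal, yet some counts fell below 1 apparent molecule, such as TrnV at 0.0928 in DMSO replicate 1. DMSO replicates 1 to 3 had the fewest apparent molecules, 182352 to 211967, and DMSO replicate 4 had 316834, within the range of the RGX-104 libraries (250375 to 344257). The treatment labels were matched by the known LXR targets: Abca1, Abcg1, Srebf1 and Mylip were all higher with RGX-104 by edgeR's quasi-likelihood test, with Abca1, a cholesterol exporter, at 6.61 CPM with DMSO and 346 CPM with RGX-104. All 12 markers of CD8+ T cell identity were detected, at a summed 5703 ± 132 CPM (SD, n = 4) with DMSO and 5690 ± 329 CPM with RGX-104. Within that sum Lef1 (355 ± 15.7 and 239 ± 27.7 CPM) and Il7r (387 ± 41.8 and 309.8 ± 28.7 CPM) were lower and Cd8a (668 ± 33.8 and 739 ± 23.1 CPM) was higher with RGX-104 without overlap, and none of the 3 passed edgeR's test (adjusted p = 0.348 for Lef1 and 1.00 for the others). B cell markers (6 of 6 detected) summed to 43.7 to 194 CPM with DMSO and 104 to 162 CPM with RGX-104. Macrophage markers (5 of 7, Fcgr1 and Mertk at 0) summed to 6.24 to 30.9 and 8.06 to 24.2 CPM, and the CD4+ and regulatory T cell markers (4 of 4) to 11.5 to 19.8 and 5.77 to 14.8 CPM. NK cell markers (3 of 5, Ncr1 and Klra8 at 0) reached at most 10.96 and 4.39 CPM, neutrophil markers (2 of 5, Ly6g, Elane and Mpo at 0) at most 34.7 and 11.5 CPM, and erythroid and platelet markers (4 of 8, with Alas2, Pf4 and Ppbp among those at 0) summed to 5.26 to 52.4 and 5.74 to 22.2 CPM. All these ranges of other cell types overlapped between the groups, and their part in the results was not tested.

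The 24 mitochondrial genes took 6.20% ± 0.690 (SD, n = 4) of all counts with DMSO and 4.71% ± 0.659 with RGX-104. Nearly all of this was ribosomal RNA. The 2 ribosomal RNAs summed with DMSO to 71245, 57716, 56329 and 58754 CPM, and with RGX-104 to 37411, 47313, 46601 and 52996 CPM. Every RGX-104 library was below every DMSO library, and DMSO replicate 1 stood well above the other 3. The 22 tRNAs together summed to 966, 859, 916 and 1235 CPM with DMSO and to 806, 1149, 964 and 1115 CPM with RGX-104. These tRNA sums overlapped, with group means of 994 ± 166 and 1009 ± 157 CPM. In bulk RNA, fewer cells of a kind and less RNA per cell cannot be told apart.

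**Figure D1:**
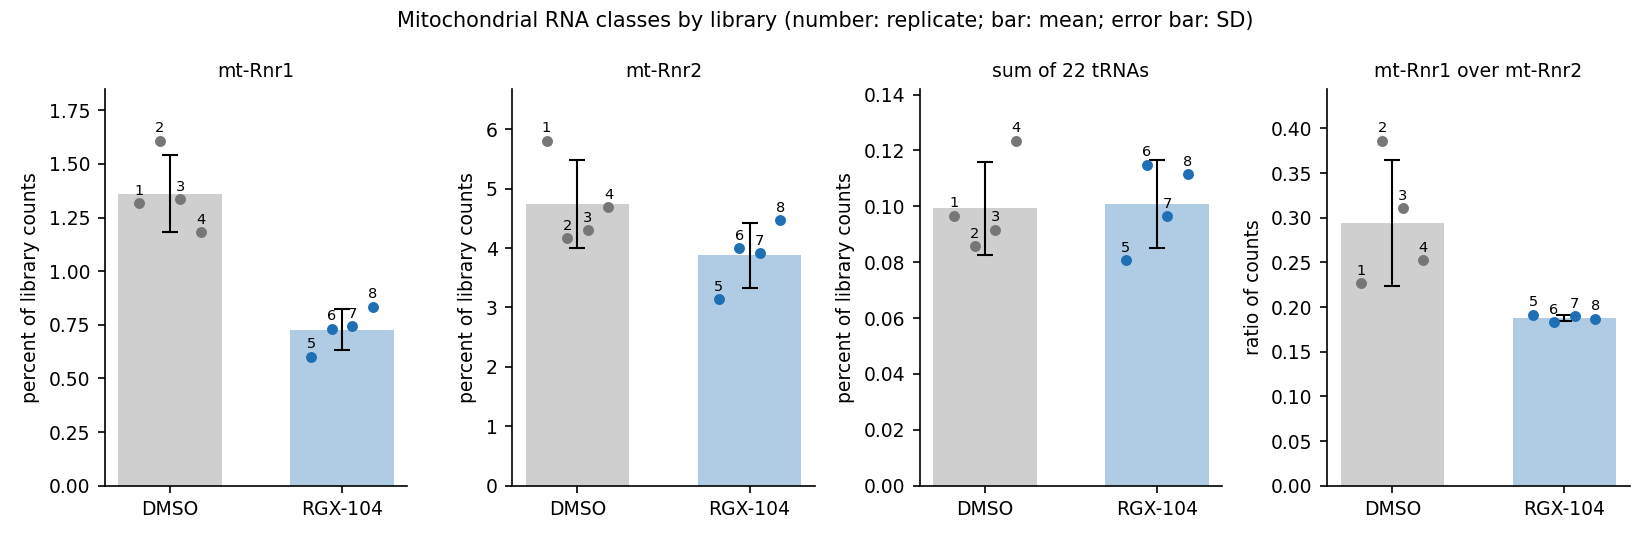
Levels of mt-Rnr1, of mt-Rnr2 and of the summed tRNAs, each in percent of library counts, and the ratio of mt-Rnr1 to mt-Rnr2. Each point is a library, by treatment group, with the mean and SD of each group. The groups do not overlap for mt-Rnr1 (1.18% to 1.61% with DMSO, 0.601% to 0.835% with RGX-104) or for the ratio. Those of mt-Rnr2 and of the tRNA sums overlap.

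mt-Rnr1, the RNA of the small mitochondrial ribosomal subunit, had the clearest difference among the members. Its level with DMSO was 13180, 16082, 13356 and 11833 CPM, and its level with RGX-104 was 6015, 7327, 7435 and 8347 CPM. The lowest DMSO library was above the highest RGX-104 library. The group means were 13613 ± 1781 and 7281 ± 960 CPM (SD, n = 4), or 1.36% ± 0.178 and 0.728% ± 0.096 of all counts. The log2 fold change was -0.92 ± 0.09 (SE), with an adjusted p of 1.10e-05 in edgeR's quasi-likelihood test over 10037 genes. By this p mt-Rnr1 ranked the fourth, after other genes that were higher with RGX-104, and it was the only tested gene called lower in this fit. Other settings with more than 1 control library called from 1 to 14 genes lower. The main fit called 0.110% of all genes in either direction, and because the set was chosen with this call known, nothing is read from 1 call among the members. mt-Rnr1 had 120412 to 325276 counts per library, or 2643 to 3749 apparent molecules with DMSO and 1506 to 2874 with RGX-104. In apparent molecules, which are not scaled to the library, the groups overlapped. If these molecules are taken as Poisson counts of equal reads each, the counting error was 1.63% to 2.58%. The coefficient of variation between libraries was 13.1% with DMSO and 13.2% with RGX-104. The SE and p above use a variance moderated over all genes. That SE is smaller than the one this spread alone would give. DMSO replicates 1 to 3 were the libraries with the fewest apparent molecules. When the count of detected genes entered the fit as a covariate, mt-Rnr1 had a log2 fold change of -0.86 (adjusted p 0.00288, edgeR). With DMSO replicate 4 as the only control, a setting chosen after seeing the data, it was -0.74, given without a test because the control is 1 library.

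mt-Rnr2, the RNA of the large subunit, was the most abundant member in every library, in CPM and per kb. Its level was 58065, 41633, 42972 and 46920 CPM with DMSO and 31396, 39986, 39167 and 44649 CPM with RGX-104. The groups overlapped, because RGX-104 replicate 8 lay above DMSO replicates 2 and 3. The group means were 47398 ± 7457 and 38799 ± 5494 CPM (SD, n = 4), a log2 fold change of -0.31 ± 0.09 (SE, from a variance moderated over all genes). Without DMSO replicate 1, the library with the most mt-Rnr2, it was -0.20. The full comparison did not pass edgeR's quasi-likelihood test (adjusted p = 1.00). Limma-voom, which called 0.139% of all genes, put mt-Rnr2 past the threshold (log2 fold change -0.33, adjusted p 0.0275), and so did edgeR without a filter on low counts (-0.31, adjusted p 4.16e-04). In apparent molecules, not scaled to the library, mt-Rnr2 was at 7592 to 14866 with DMSO and 7861 to 15371 with RGX-104, with a ratio of the means of 1.09. Per kb of RNA, mt-Rnr2 stood at 29961 ± 4714 CPM with DMSO and 24526 ± 3473 CPM with RGX-104, and mt-Rnr1 at 14254 ± 1865 and 7624 ± 1006 CPM. Because the kit primes on poly(A), counts need not grow with RNA length, and levels per kb are a description.

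The 2 ribosomal RNAs, which come from neighbouring stretches of one precursor, stood in a lower ratio in every RGX-104 library than in any DMSO library. mt-Rnr1 was 0.227, 0.386, 0.311 and 0.252 of mt-Rnr2 in the DMSO libraries and 0.192, 0.183, 0.190 and 0.187 of it in the RGX-104 libraries. The DMSO libraries spread widely, whereas the RGX-104 libraries lay close together and below all of them. On the log2 scale the ratio was -1.80 ± 0.34 (SD, n = 4) with DMSO and -2.41 ± 0.03 with RGX-104, a difference of -0.62. DMSO replicate 2, with the highest ratio, had the most mt-Rnr1 and the least mt-Rnr2 of its group. DMSO replicate 1, with the lowest DMSO ratio, had the most mt-Rnr2. Without DMSO replicate 2 the difference in log2 ratio was -0.47, and against DMSO replicate 4 alone it was -0.42. The levels themselves did not show this tightness, since the coefficient of variation of mt-Rnr2 was 15.7% with DMSO and 14.2% with RGX-104. In the RGX-104 libraries both RNAs were lowest in replicate 5 and highest in replicate 8.

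**Figure D2:**
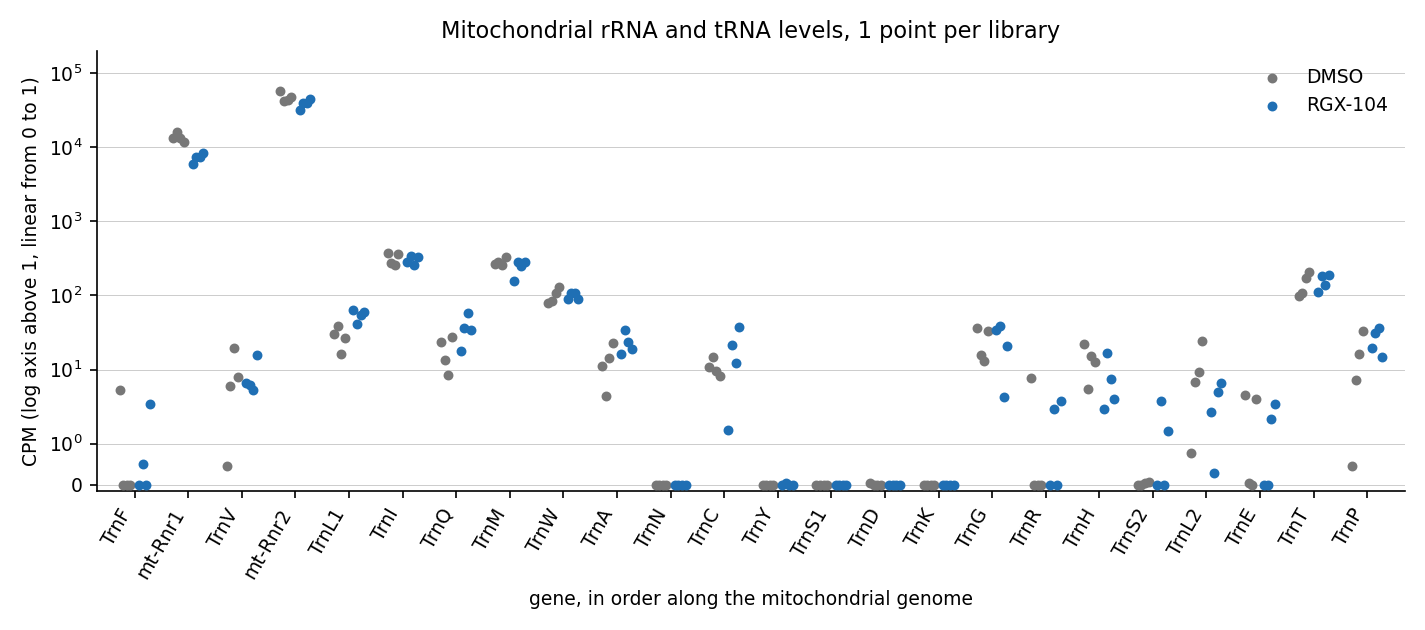
Level of each mitochondrial gene in CPM on a symmetric log axis, in genome order, one point per library and coloured by group. Not scaled for length, the 2 ribosomal RNAs lie well above the tRNAs, and mt-Rnr1 is the only member whose DMSO points all lie above its RGX-104 points.

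The tRNAs were unevenly represented. Of the 22, 13 had counts in all 8 libraries, 6 had counts in some of them, and 3 (TrnN, TrnS1 and TrnK) were at 0 in every library. A count of 0 allows up to 3 counts, which is 0.106 to 0.185 CPM per library, or 8.71 to 16.5 CPM if apparent molecules are counted in place of reads. These limits cover counting error only. By coding strand, 9 of 14 plus-strand tRNAs and 4 of 8 minus-strand tRNAs were seen in every library. Among the 7 plus-strand tRNAs that begin within 5 bases of the end of a protein gene, or overlap it, 5 were seen in every library. TrnI overlaps the last 2 bases of ND1 and TrnW the last 2 bases of ND2. The protein genes were not counted here and the strand setting is not given in the sources used here, so reads of such a neighbour's end cannot be told apart from reads of the tRNA, nor can TrnI be told apart from TrnQ over the 3 bases that they share on opposite strands.

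Per kb, the order of the levels over all 8 libraries was led by TrnI at a mean of 4485 CPM, TrnM at 3816, TrnT at 2258 and TrnW at 1490, followed by TrnL1 at 550 and TrnQ, the glutamine tRNA, at 388. TrnI was above TrnM in 7 of 8 libraries, though their ranges overlapped. TrnM was above TrnT, and TrnT above TrnW, in 8 of 8 libraries, also with overlapping ranges. Between TrnW and TrnL1 the ranges did not overlap. Below TrnL1 every neighbouring pair among the tRNAs counted in all libraries overlapped. TrnI was below mt-Rnr1, at 316 ± 60.4 CPM against 13613 ± 1781 CPM with DMSO (SD, n = 4). Per kb these were 4579 ± 876 and 14254 ± 1865 CPM. Counts primed on poly(A) need not grow with length, so this comparison per kb is a description.

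TrnI, which carries isoleucine, was at 372, 270, 258 and 364 CPM with DMSO and 286, 341, 255 and 329 CPM with RGX-104. TrnM, the only methionine tRNA of mitochondria and so also their initiator, was at 261, 284, 255 and 333 CPM with DMSO and 156, 283, 250 and 284 CPM with RGX-104. The groups overlapped for both, with log2 fold changes of -0.08 ± 0.16 (SE) and -0.24 ± 0.18. TrnT, the threonine tRNA that follows CYTB, was at 99.4, 109, 172 and 207 CPM with DMSO and 111, 182, 140 and 189 CPM with RGX-104. TrnW, the tryptophan tRNA that follows ND2, was at 79.9, 82.9, 109 and 131 CPM with DMSO and 88.1, 109, 109 and 88.8 CPM with RGX-104. Neither separated the groups, at log2 fold changes of 0.07 ± 0.24 and -0.05 ± 0.23. None of these 4 passed edgeR's test (adjusted p = 1.00 for each).

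TrnL1, the leucine tRNA directly after mt-Rnr2, was the only tRNA whose groups did not overlap. It was at 30.03, 38.2, 16.3 and 26.7 CPM with DMSO and 63.3, 40.8, 55.1 and 59.6 CPM with RGX-104. Every RGX-104 library was above every DMSO library, RGX-104 replicate 6 only just. Its log2 fold change was 0.96 ± 0.37 (SE), which did not pass edgeR's test (adjusted p = 1.00). Not scaled to the library, these levels correspond to 3.46 to 8.45 apparent molecules per DMSO library and 11.9 to 20.5 per RGX-104 library. The RNA before it on the precursor, mt-Rnr2, had the opposite sign at -0.31, and no base separates the 2 genes.

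**Figure D3:**
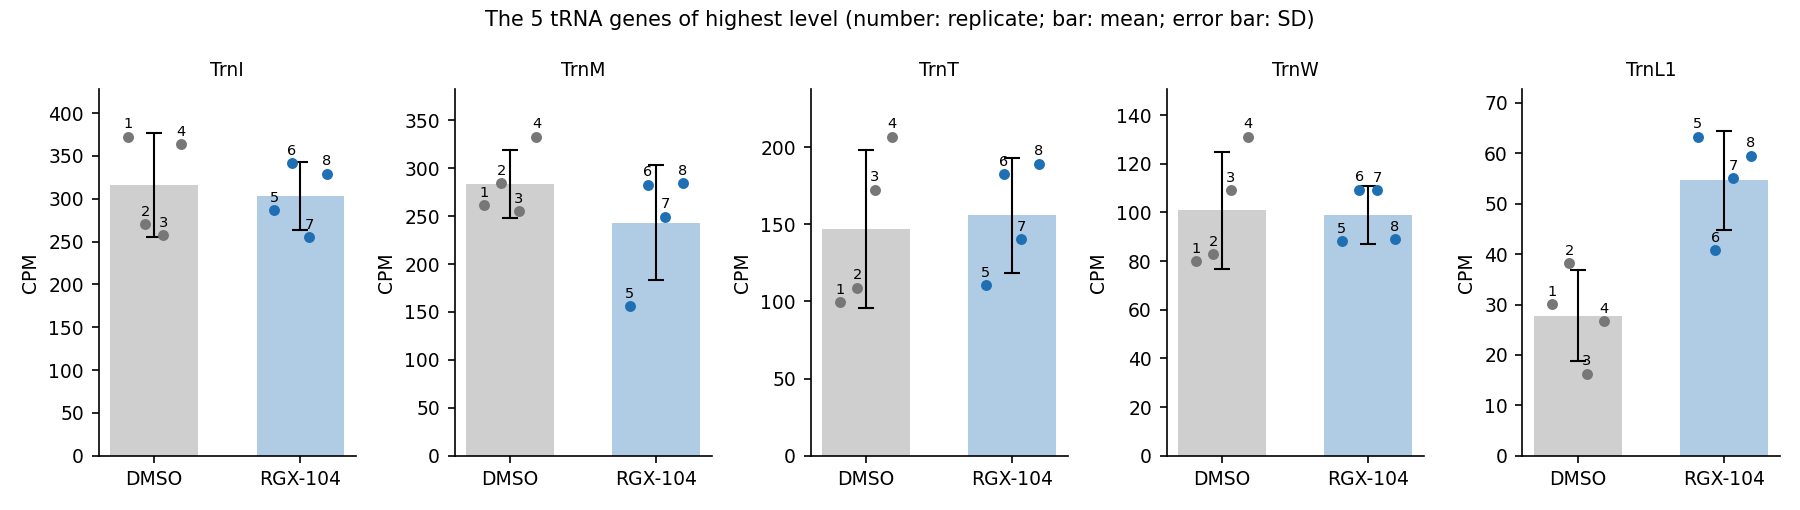
Level in CPM of the tRNAs with the highest levels, TrnI, TrnM, TrnT, TrnW and TrnL1, one point per library, by group. TrnI and TrnM lie highest, followed by TrnT and TrnW, and only for TrnL1 do all RGX-104 points lie above all DMSO points.

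The other tRNAs that passed the filter on low counts were noisier. TrnQ was at 23.6, 13.6, 8.54 and 27.7 CPM with DMSO and 17.96, 36.5, 58.4 and 34.0 CPM with RGX-104. TrnA, which carries alanine, was at 11.2, 4.36, 14.4 and 22.7 CPM with DMSO and 16.3, 33.7, 23.6 and 18.7 CPM with RGX-104. Both sets of groups overlapped, at log2 fold changes of 0.98 ± 0.52 (SE) and 0.79 ± 0.65. TrnC, the cysteine tRNA, was at 10.95, 14.6, 9.65 and 8.09 CPM with DMSO and 1.52, 21.5, 12.1 and 37.2 CPM with RGX-104. TrnP, the proline tRNA, was at 0.463, 7.32, 16.2 and 32.7 CPM with DMSO and 19.3, 31.5, 36.9 and 14.5 CPM with RGX-104. The DMSO libraries of TrnC lay close together while its RGX-104 libraries spread widely, and TrnP had its widest spread with DMSO. Their log2 fold changes were 0.73 ± 0.85 and 0.82 ± 0.81. Without RGX-104 replicate 8 that of TrnC was 0.0952, and that of TrnP was 0.42 without DMSO replicate 1 and 1.67 without DMSO replicate 4.

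TrnG, the glycine tRNA, was at 36.3, 15.9, 12.98 and 33.6 CPM with DMSO and 34.1, 38.7, 4.32 and 20.5 CPM with RGX-104. TrnH, the histidine tRNA, was at 22.2, 5.38, 15.1 and 12.5 CPM with DMSO and 2.90, 16.9, 7.41 and 4.04 CPM with RGX-104. Both overlapped, with log2 fold changes of -0.04 ± 0.61 (SE) and -0.84 ± 0.98. TrnV, the valine tRNA between the ribosomal RNAs, was at 0.463, 5.92, 19.5 and 7.91 CPM with DMSO and 6.65, 6.14, 5.31 and 15.7 CPM with RGX-104. TrnL2, the second leucine tRNA, was at 0.771, 6.89, 9.28 and 24.5 CPM with DMSO and 2.69, 0.281, 4.94 and 6.59 CPM with RGX-104. TrnE, the glutamate tRNA, was at 4.52, 0.0538, 0 and 3.99 CPM with DMSO and 0, 0, 2.16 and 3.44 CPM with RGX-104. The groups overlapped for all 3, at log2 fold changes of -0.01 ± 1.23, -1.54 ± 1.45 and -0.64 ± 2.63.

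The 8 tRNAs that did not pass the filter were TrnF, TrnN, TrnY, TrnS1, TrnD, TrnK, TrnR and TrnS2. Among those with any count, TrnF (phenylalanine) had 103 counts in DMSO replicate 1 and 11 and 58 counts in RGX-104 replicates 6 and 8. TrnR, with its run of 8 A, had 150 counts in DMSO replicate 1 and 63 and 64 counts in RGX-104 replicates 6 and 8. These 2 tRNAs were thus counted in the same 3 libraries and at 0 in the other 5. Where counted, TrnF was at 0.150 to 1.19 apparent molecules and TrnR at 0.861 to 1.55. Both are within what a count of 0 allows in apparent molecules, so nothing is read from the shared libraries. TrnS2, a serine tRNA, had 81 and 25 counts in RGX-104 replicates 6 and 8 and 1 count in each of DMSO replicates 3 and 4. TrnD (aspartate) and TrnY (tyrosine) had 1 count each in the whole series.

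By class, the plus-strand tRNAs summed to 935 ± 142 CPM (SD, n = 4) with DMSO and 904 ± 134 CPM with RGX-104. The 8 tRNAs coded on the minus strand summed to 50.7, 39.9, 48.8 and 95.2 CPM with DMSO and 55.1, 123, 133 and 108 CPM with RGX-104. With the strand setting not given, reads of plus-strand precursor over these genes cannot be told apart from reads of the minus-strand tRNAs. Of the RGX-104 libraries 3 lay above every DMSO library and replicate 5 lay below DMSO replicate 4, so the groups overlapped. As a share of all tRNA counts, the minus-strand tRNAs made up 5.73% ± 1.35 with DMSO and 10.3% ± 2.88 with RGX-104. The 4 most abundant tRNAs, TrnI, TrnM, TrnT and TrnW, a grouping chosen after their levels were seen, held 84.1%, 86.9%, 86.7% and 83.8% of the tRNA counts with DMSO and 79.6%, 79.7%, 78.2% and 80.0% with RGX-104. All RGX-104 shares were below all DMSO shares. TrnM alone, also named after the shares were seen, held 27.0% to 33.1% of tRNA counts with DMSO and 19.4% to 25.9% with RGX-104. These shares did not overlap, although the CPM of TrnM did. The shares of TrnL1, whose CPM did not overlap, did so at 1.78% to 4.45% and 3.55% to 7.85%. A share falls when the counts of other tRNAs rise, and no test was run on shares. The other 18 tRNAs, each at few apparent molecules, summed to 153, 112, 122 and 200.4 CPM with DMSO and 165, 233, 210.2 and 223 CPM with RGX-104, and here the groups overlapped through DMSO replicate 4. The 3 lowest sums were those of DMSO replicates 1 to 3, the libraries with the fewest apparent molecules, and the part of depth in these shares was not tested.

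Over the 16 members that passed the filter, the median log2 fold change was -0.04, with 6 above 0 and 10 below, and the median over all 10037 genes tested was 0.01. The 14 tRNAs among them had a median of -0.02, with 6 above 0 and 8 below. For mt-Rnr1 the groups did not overlap with RGX-104 lower, as for 1.35% of all genes, and for TrnL1 they did not overlap with RGX-104 higher, as for 2.20% of all genes. An unadjusted p under 0.05 was found for mt-Rnr1, mt-Rnr2 and TrnL1, against 3.81% of all genes. These members passed a filter that favours genes high in at least one group, and nothing is read from their counts beyond the description.

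**Figure D4:**
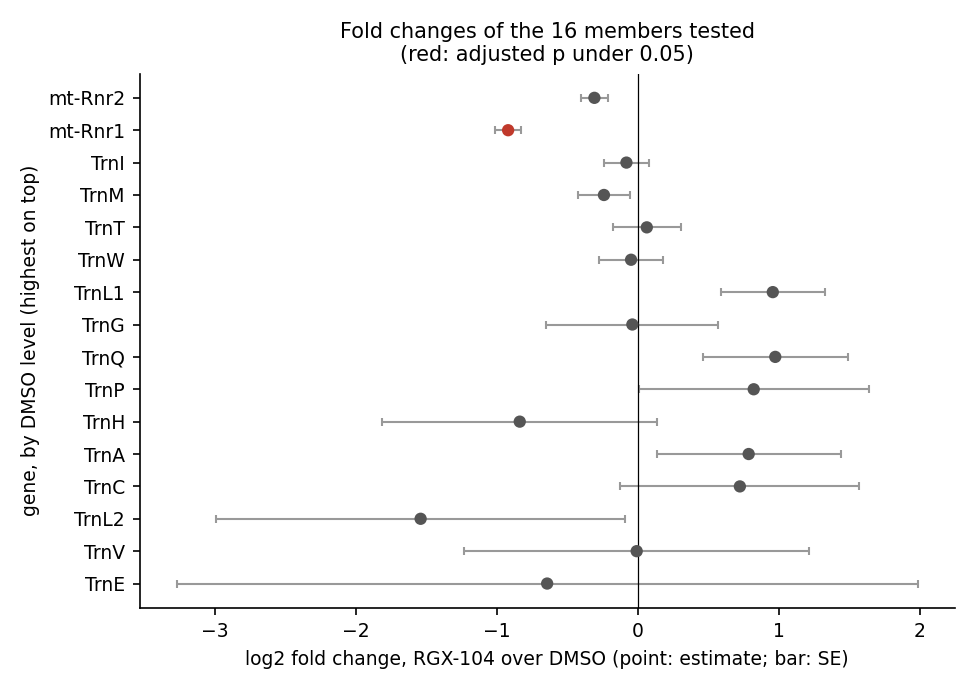
Log2 fold change of RGX-104 against DMSO, with its SE, for the 16 members that passed the filter. mt-Rnr1 lies at -0.92 and mt-Rnr2 at -0.31 with short bars, whereas the tRNAs lie on both sides of 0 and TrnE has the widest bar. The SE uses a variance moderated over all genes, not the spread of each gene alone.

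Nuclear genes for the making and use of these RNAs were not used to choose the members. The lists held 206 genes in 10 groups, of which 192 were tested, and edgeR's quasi-likelihood test called 0 of them. An unadjusted p under 0.05 was found for 4 of 192, all higher with RGX-104 (2.08%, against 3.81% of all genes), limma-voom called 0 and DESeq2 called 1. Their median log2 fold change was 0.02, with 105 above 0 and 87 below. The groups did not overlap for 7 of 192 genes higher with RGX-104 and for 1 gene lower, against 2.20% and 1.35% of all genes. Most of these genes were low, with a median of 26.6 CPM with DMSO.

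Of the transcription and nucleoid genes, such as Polrmt, the RNA polymerase of mitochondria, and Tfam, which packages their DNA, 16 of 16 were tested and 0 called, with 11 above 0 and a median of 0.19. The 3 with the smallest p were the protease Lonp1 at 50.7 ± 17.3 and 64.1 ± 9.67 CPM (SD, n = 4, DMSO and RGX-104), the nuclease Mgme1 at 3.52 ± 5.88 and 11.8 ± 15.2 CPM, and Mterf2 at 5.39 ± 5.59 and 10.2 ± 5.83 CPM. All 3 overlapped between the groups. RNA processing and turnover genes had 19 of 21 tested, 0 called and a median of 0.20, with 13 above 0. Supv3l1, the helicase that works with the mitochondrial RNA degrading exonuclease Pnpt1, was at 6.12, 4.68, 9.28 and 17.5 CPM with DMSO and 18.3, 28.5, 52.6 and 21.4 CPM with RGX-104. Trmt10c, a subunit of the enzyme that cuts the 5′ end of mitochondrial tRNAs, was at 1.29, 16.9, 15.5 and 7.17 CPM with DMSO and 33.9, 27.3, 32.7 and 27.3 CPM with RGX-104. The groups did not overlap for either, but neither passed edgeR's test, with log2 fold changes of 1.66 ± 0.64 (SE) and 1.56 ± 0.68 and an adjusted p of 1.00 for both. Tbrg4, a FASTK family RNA-binding protein, was at 39.7 ± 10.3 and 26.8 ± 4.58 CPM.

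Genes that modify mt-Rnr1 or assemble the small subunit had 7 of 9 tested, 0 called and a median of -0.19, with 3 above 0. Rbfa, a small-subunit assembly factor, was at 77.5 ± 17.3 CPM (SD, n = 4) with DMSO and 66.6 ± 13.3 CPM with RGX-104, Ybey at 13.9 ± 11.4 and 8.16 ± 4.71 CPM, and Mettl17, an assembly factor of the same subunit, at 82.4 ± 21.99 and 72.7 ± 13.7 CPM. All 3 ranges overlapped. Genes that modify mt-Rnr2 or assemble the large subunit had 13 of 15 tested, 0 called and a median of 0.01. The GTPase Mtg2 was at 16.4 ± 3.41 and 37.4 ± 18.5 CPM, the related GTPase Mtg1 at 25.4 ± 13.2 and 9.08 ± 5.31 CPM, and the methyltransferase Mrm1 at 37.0 ± 8.91 and 21.3 ± 4.90 CPM. These 3 went in different directions and overlapped. In the same list, and named after their values were seen, Mrm2, a methyltransferase of mt-Rnr2, lay higher without overlap at 3.32 ± 3.07 and 14.5 ± 3.86 CPM, and Rpusd4, a pseudouridine synthase, was the 1 gene lower without overlap at 31.5 ± 11.2 and 17.1 ± 5.61 CPM.

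Genes of tRNA maturation had 17 of 17 tested, 0 called and a median of -0.14, with 8 above 0. Gtpbp3, which modifies the wobble base of several mitochondrial tRNAs, was at 25.8 ± 11.4 CPM (SD, n = 4) with DMSO and 43.0 ± 17.2 CPM with RGX-104, Mtfmt, which formylates the methionine on TrnM, at 25.2 ± 21.8 and 13.1 ± 9.02 CPM, and Mettl8 at 16.8 ± 8.42 and 8.97 ± 6.75 CPM. The enzymes that charge tRNAs with amino acids in mitochondria had 22 of 22 tested, 0 called and a median of -0.02, with 10 above 0. Ears2, the glutamate enzyme, was at 25.2 ± 20.8 and 9.42 ± 5.47 CPM, and Iars2, the isoleucine enzyme, at 111 ± 31.6 and 87.6 ± 22.1 CPM. The groups overlapped for all of these genes.

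Proteins of the small mitochondrial ribosomal subunit, whose RNA is mt-Rnr1, had 27 of 30 tested, 0 called and a median of 0.09, with 14 above 0 and 13 below. Mrps15 was at 29.6, 42.6, 43.1 and 51.1 CPM with DMSO and 65.7, 43.1, 87.3 and 64.0 CPM with RGX-104, overlapping only through RGX-104 replicate 6. Mrps35 was at 25.7 ± 2.61 CPM (SD, n = 4) and 13.6 ± 9.94 CPM, and Mrps6 at 17.1 ± 9.95 and 30.5 ± 19.0 CPM. Proteins of the large subunit had 50 of 52 tested, 0 called and a median of 0.03, with 29 above 0 and 21 below. Mrpl23 was at 6.43 ± 3.44 and 17.9 ± 7.71 CPM and Mrpl14 at 43.6 ± 5.83 and 58.8 ± 5.51 CPM, both without overlap, and Mrpl32 at 39.7 ± 18.7 and 25.7 ± 9.96 CPM. Translation factors had 9 of 11 tested, 0 called and a median of -0.24. The elongation factor Tufm was at 0, 5.38, 9.53 and 13.9 CPM with DMSO and 20.8, 41.4, 30.8 and 17.0 CPM with RGX-104, without overlap, but missed the threshold (log2 fold change 1.91 ± 0.99, SE, adjusted p = 1.00, edgeR). Mtif2, an initiation factor, was at 61.3 ± 27.9 and 46.9 ± 10.6 CPM, and Gfm1, an elongation factor, at 41.8 ± 5.09 and 52.6 ± 12.1 CPM.

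**Figure D5:**
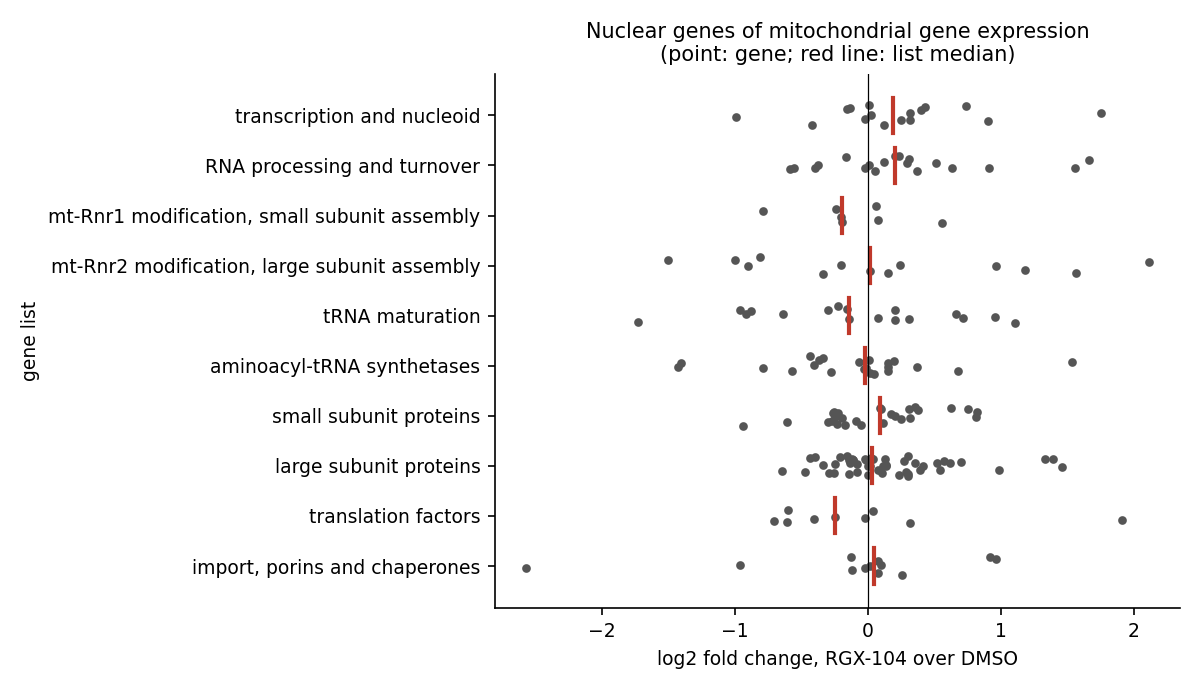
Log2 fold change of RGX-104 against DMSO for every tested gene of the 10 nuclear lists, one point per gene, with the median of each list. The medians lie between -0.24 and 0.20, on both sides of the median of all genes tested at 0.01.

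Genes of mitochondrial mass and protein import had 12 of 13 tested, 0 called by edgeR and a median of 0.05. Tomm40, the channel of the import pore in the outer membrane, was at 51.0, 45.3, 58.0 and 51.5 CPM with DMSO and 100.3, 98.3, 107 and 99.7 CPM with RGX-104. The 4 RGX-104 libraries lay close together, well above the 4 DMSO libraries. Its log2 fold change was 0.96 ± 0.23 (SE), which did not pass edgeR's test (adjusted p = 0.395) and passed in DESeq2 (0.95 ± 0.20, adjusted p 4.29e-04). In GRCm38 Tomm40 spans chromosome 7, 19701313 to 19715442, and 2 bases separate it from Apoe (19696244 to 19701310), which encodes a lipid carrier and is a known LXR target. Apoe was at 16.5 ± 14.6 CPM (SD, n = 4) with DMSO and 24.4 ± 9.13 CPM with RGX-104, with overlap (adjusted p = 1.00, edgeR). Apoe was on none of the gene lists, and a link between Apoe and Tomm40 was not tested. Timm44 and Timm23, parts of the inner membrane import machinery, were at 73.3 ± 46.7 and 37.9 ± 17.1 CPM and at 7.63 ± 8.00 and 1.29 ± 1.93 CPM, both with overlap.

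Structural RNAs made in the nucleus were listed for comparison with the ribosomal RNAs, but their levels were too low to show a change like that of mt-Rnr1. Of 13 listed, 4 were tested, 0 were called and the median was -0.32, with 1 above 0. Rn28s1, the large cytosolic ribosomal RNA, was at 6.76 ± 5.75 CPM (SD, n = 4) with DMSO and 3.84 ± 1.62 CPM with RGX-104, Rpph1, the RNA of nuclear RNase P, at 12.03 ± 8.60 and 8.70 ± 8.84 CPM, and Rn7sk, which binds the elongation factor P-TEFb, at 13.1 ± 6.39 and 11.9 ± 3.52 CPM. All 3 overlapped between the groups. The SE of their log2 fold changes was 0.82 to 1.73, against a log2 fold change of -0.92 for mt-Rnr1, so nothing is read from the lack of calls. The whole list summed to 42.7 ± 19.3 CPM with DMSO and 33.1 ± 16.2 CPM with RGX-104.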

How the data were processed

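The authors deposited a table of raw read counts, whole numbers for each gene symbol in 1 column per library, not normalized, per the file headers and the values. The labels' protocols name a QuantSeq 3′ kit for the libraries. The submitters' processing notes list GRCm38, STAR 2.7.8a, DESeq2 1.4 and R 4.1.0 with no role for any. How reads were counted, on which annotation and strand and with or without molecular identifiers, is not given in the sources used here.

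Counts were fitted with edgeR 4.0.16 (R 4.3.3; TMM, filterByExpr with a minimum count of 10, quasi-likelihood test, treatment as the only term, all 8 libraries, two-sided), which kept 10037 genes, with Benjamini-Hochberg adjustment over all of them and calls at an adjusted p under 0.05. The SE is the absolute log2 fold change divided by the root of F, and F uses a variance moderated over all genes. The script was tested on simulated counts. CPM are counts scaled to a library total of 1000000, and CPM per kb divides by gene length. Apparent molecules were estimated from the share of zeros among genes at 2 to 20 CPM in the other 7 libraries, as a Poisson count. Alternatives were DESeq2 1.42.0, limma-voom (limma 3.58.1), other scalings, filters and dispersions, a covariate and leaving out libraries. DMSO replicate 4 as the only control was added after seeing the data.

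The members and gene lists were chosen with earlier results of these data known. Members with a count were all described, and each nuclear list is shown by its called genes, otherwise by the 3 smallest p, apart from an item that is not reported here. Symbols were matched to the RefSeq GRCm38.p6 table (39351 of 41730), and all 24 members to GENCODE M21. Of 8 names of nuclear copies of mitochondrial DNA, 0 were matched.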

Additional observations from a re-analysis of the deposited data

Results flagged for a closer look

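Of 132 groups of 4 libraries examined (members, class sums, marker sums and named nuclear genes), 14 held 1 library that lay far from the rest of its group. About 7 such groups are given by chance if values are independent and normally distributed. Levels near 0 are not: with the other 3 libraries at 0, 1 count is enough for a flag. Nothing is therefore read from 14 against 7. Among the members, DMSO replicate 1 stood apart in TrnF at 5.30 CPM, in TrnR at 7.71 CPM and in TrnD at 0.0514 CPM, with the other 3 DMSO libraries at 0 for each. TrnD there is 1 count, and TrnF and TrnR are 1.06 and 1.55 apparent molecules, within what a count of 0 allows in the other libraries (16.5, 14.2 and 9.47 CPM in DMSO replicates 2, 3 and 4, counted as apparent molecules). In the same library the summed ribosomal RNAs were at 71245 CPM, and those of DMSO replicates 2 to 4 at 56329 to 58754 CPM. RGX-104 replicate 8 stood apart in TrnV at 15.7 CPM (others 5.31 to 6.65 CPM) and in TrnF at 3.44 CPM (others 0 to 0.516 CPM). RGX-104 replicate 6 held the only TrnY count, 0.0469 CPM, also within that limit.

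Among the nuclear genes, Mgme1 was at 12.2 CPM in DMSO replicate 3 (others 0 to 1.83 CPM), Mterf2 at 13.7 CPM in DMSO replicate 2 (1.34 to 3.37 CPM) and Mtg2 at 21.4 CPM in DMSO replicate 3 (14.2 to 15.2 CPM). Mtg1 was low in DMSO replicate 2 at 5.70 CPM (30.05 to 34.1 CPM), and Mrpl23 was low in DMSO replicate 4 at 1.29 CPM (7.75 to 8.42 CPM). Summed NK cell markers reached 10.96 CPM in DMSO replicate 3 (0 to 1.75 CPM), and summed neutrophil markers reached 34.7 CPM in DMSO replicate 4, with 0 in the other 3.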

How the results depend on the processing

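mt-Rnr1 was called lower in every alternative with more than 1 control library, with log2 fold changes from -0.99 to -0.84. With DMSO replicate 4 as the only control it was -0.74, given without a test. mt-Rnr2 ranged from -0.38 to -0.20 when 1 library was left out. Called members numbered 2 without a filter and in limma-voom, where mt-Rnr2 was added. Genes called higher over the whole table numbered 17 in DESeq2, 6 with genes detected as covariate and 7 to 11 when 1 library was left out, against 10. Genes called lower numbered 4 without a filter, 14 in DESeq2, 3 in limma-voom and 1 to 3 when 1 library was left out, with 3 without DMSO replicate 4. DESeq2 called 1 nuclear list gene. The summed tRNAs had a log2 ratio of -0.29 against DMSO replicate 4 alone. The cause of these shifts was not tested.

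No tRNA was called in any fit that gave an adjusted p and had more than 1 control library. DESeq2 gave no adjusted p for 9 of the 14 tRNAs. Of all 252 fits, 25, in 9 tRNAs, had the other sign. With DMSO replicate 4 alone as control, where the lone library is assumed to vary like the others, TrnV was at 0.0613, TrnA at -0.0152, TrnT at -0.44 and TrnP at -0.39. In limma-voom TrnV was at 0.55, TrnC at -0.51 and TrnG at 0.0170. TrnV was at 0.00288 with library totals, and TrnT at -0.42 with the covariate. Leaving out 1 library gave -0.50 to 0.80 for TrnV, -0.17 to 0.00772 for TrnI, -0.14 to 0.11 for TrnW, -0.35 to 0.31 for TrnG, -1.61 to 0.00923 for TrnE and -0.0850 to 0.28 for TrnT, and, with the sign kept, 0.0952 to 1.10 for TrnC, 0.42 to 1.67 for TrnP, 0.66 to 1.25 for TrnQ, 0.49 to 1.20 for TrnA, -0.33 to -0.0805 for TrnM, -1.55 to -0.51 for TrnH and -2.001 to -0.65 for TrnL2. List medians changed sign in 26 of 180 fits, in 8 of 10 lists. The median of all genes was 0.13 against DMSO replicate 4 alone. No paired analysis was possible because the library numbers are unique across the groups.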
